A study of Mus musculus with 36 samples.

Results

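Mice with a single X chromosome were compared by the parent that the X came from, over liver, kidney, muscle and brain together. The comparison used 24 of the 36 arrays of the study, 12 of XmO mice, whose X is maternal, and 12 of XpO mice, whose X is paternal. In each tissue there were 3 XmO and 3 XpO arrays, chosen by the genotype that the sample titles give. All mice were females of 12 weeks on a random-bred MF1 background, in which the X chromosomes go back to a single progenitor X. XpO mice have 39 chromosomes and were bred from In(X)1H/XPaf females crossed to XY males. XmO mice, also with 39 chromosomes, were bred from XX females crossed to males that carry XPaf and Y*. The remaining 12 arrays held RNA of XX mice with 40 chromosomes, bred from the same cross as the XpO mice. Each array held pooled RNA of 3 mice in pools 1 and 2 and of 2 mice in pool 3 of the XO genotypes, and a pool is numbered alike in each tissue. The parental origin of the X and the cross cannot be told apart, because every XmO mouse came from one cross and every XpO mouse from the other.

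Imprinting is the expression of a gene from the copy of one parent, set by marks laid down in the germ line. A female with 2 X chromosomes silences one of them in each cell, so both parental copies are used across a tissue, whereas an XO female has the copy of one parent in every cell. A gene on the X that obeys its parental origin would therefore be read differently in XmO and XpO mice, in each tissue where it is imprinted. In the mouse the known cases lie mainly in the Xlr family, and in extraembryonic tissues the paternal X is the one that is silenced. Autosomal genes have both parental copies in either genotype.

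The labels of tissue and genotype were checked first. Of the marker probes fixed for each tissue, 9 of 9 in liver, 11 of 12 in kidney, 7 of 7 in muscle and 14 of 15 in brain read higher on every XO array of that tissue than on any XO array of another. Xist, the RNA that coats the inactive X, read 6.99 to 7.28 on the 24 XO arrays with probe ILMN_2475156 and 9.79 to 11.27 on the XX arrays. The lowest correlation of an array with another of its tissue and genotype was 0.993 to 0.997 in liver, kidney and muscle, and was as low as 0.977 in brain, between XmO pools 2 and 3. The values are normalised log2 signals, and 17020 of the 28885 probes of the table had a value in all 4 tissues and were tested. Arrays of the same pool deviated together, with a median correlation of 0.13 over 36 pairs of arrays from different tissues. Different pools of the same genotype had -0.06. Deviations were taken from the mean of the 3 arrays of a tissue and genotype, so the -0.06 follows largely from the 0.13. The consensus correlation of a pool in limma was -0.01. The 4 arrays of a pool hold RNA of the same mice, so the mean of a pool over the tissues was the unit of the test and n = 3 pools a genotype.

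XmO and XpO mice differed in few transcripts across the 4 tissues, and none of these probes was assigned to the X chromosome. At an adjusted p under 0.05 in limma, 13 of 17020 probes passed (0.0764%), of which 5 were higher in XmO mice (0.0294%) and 8 were lower (0.047%). They stand for 8 autosomal genes outside the histones, that is Ndufb10, Parp3, Echdc3, Kptn, Gfer, Ntpcr, Zfp944 and Abca3, for 3 histone H4 genes, and for 2 probes that the annotation does not name. Most of the differences were small. In 9 of the 13 probes they were under 0.6, and 3 reached 1. At an unadjusted p under 0.05 the count was 1493 (8.77%), 738 with a positive (4.34%) and 755 with a negative difference (4.44%). The last probe to pass had an adjusted p of 0.0463 and the first to miss 0.0652, both in limma. With the 24 arrays as units, tissue as a block and the pool not in the fit, 136 probes passed (0.799%), among them 12 of the 13, and with the pool as a random block 153 passed (0.899%), among them all 13. With the consensus correlation near 0, the random block left the arrays of a pool nearly independent in that fit.

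**Figure D1:**
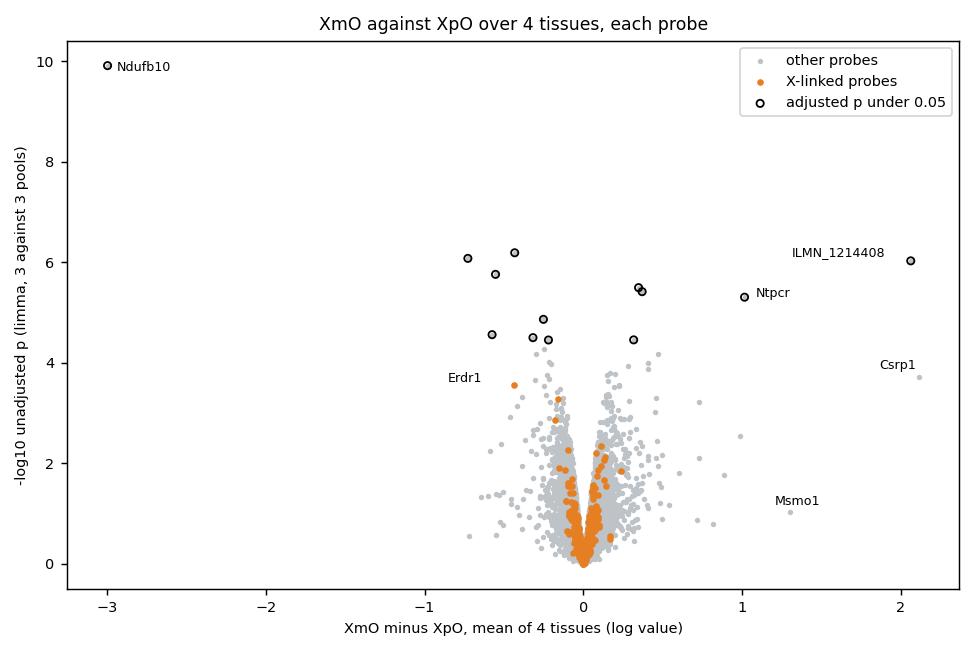
Difference of each of 17020 probes between XmO and XpO pools (x axis, mean of 4 tissues, log2 scale) against -log10 of the unadjusted limma p (y axis). Circled points have an adjusted p under 0.05. Ndufb10 lies at -3.00, and the X-linked probes (orange) lie in the middle, the farthest being Erdr1 at -0.44.

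Ndufb10, which encodes an accessory subunit of respiratory complex I and lies on chromosome 17, showed the largest difference of all probes. Its probe ILMN_2691261 read 7.88, 7.86 and 7.67 in the liver of XmO pools 1, 2 and 3 and 10.42, 10.54 and 10.37 in the XpO pools. In kidney the XmO values were 7.92, 7.81 and 7.85 and the XpO values 11.17, 11.21 and 11.06. Muscle had the highest levels in both, 8.60, 8.30 and 8.49 in XmO mice and 12.01, 12.01 and 11.85 in XpO mice. Brain read 7.72, 7.73 and 7.63 in XmO mice and 10.28, 10.22 and 10.28 in XpO mice. No XmO array came near an XpO array in any tissue. Over the tissues the pool means were 7.96 ± 0.07 in XmO mice and 10.95 ± 0.05 in XpO mice (SD, n = 3), a difference of -3.00 (SE 0.043, 7.98-fold lower, limma adjusted p = 2.08e-06).

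Ndufb10 was read by 1 of the tested probes, so its signal has no second probe beside it. The XX pools, which share the cross of the XpO mice, had means of 10.65, 11.12 and 10.35 for Ndufb10, near the XpO level and far from the XmO level. The size of the difference was not the same in every tissue. The liver had -2.64 and the brain -2.57, against -3.29 in kidney and -3.49 in muscle, and the interaction of genotype and tissue passed (limma adjusted p = 0.000437). No other complex I probe passed. Of 43 probes of 32 complex I genes, Ndufb10 alone passed the test over tissues, and the median difference of the list was -0.02, against 0.00 over all probes. Ndufs3, a core subunit next by p, had pool means of 10.44, 10.44 and 10.37 in XmO mice and 10.35, 10.31 and 10.30 in XpO mice (difference 0.10, limma adjusted p = 0.432), and its second probe differed by -0.04.

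A pair of probes without a gene name passed as well. Probe ILMN_1214408 read 13.19, 13.12 and 13.11 in XmO liver against 10.53 to 11.31 in XpO liver, and 12.81, 12.82 and 12.81 in XmO muscle against 10.43, 10.61 and 10.81. Its differences were 2.19, 1.89, 2.20 and 1.97 in liver, kidney, muscle and brain, and the groups did not overlap in any tissue. The mean difference was 2.06 (SE 0.12, limma adjusted p = 0.00400), and the call was lost without XmO pool 1 (0.0501). The XX pools were split. XX pools 1 and 3 had means of 11.43 and 11.77, between the XO genotypes, and XX pool 2 a mean of 8.20, below all 6 XO pools, with 7.92 to 8.62 in the 4 tissues. Probe ILMN_2717549 was lower in XmO mice by 0.73 (SE 0.041, limma adjusted p = 0.00400), between -0.55 in liver and -0.96 in muscle, with pool means of 12.81 to 12.94 in XmO mice and 13.59 to 13.65 in XpO mice. Its 3 XX pools read 13.36 to 13.74.

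Ntpcr, a nucleoside triphosphatase gene on chromosome 8, was higher in XmO mice by 1.02 (SE 0.075, limma adjusted p = 0.0106). The XpO pools had means of 6.89, 6.89 and 6.87, at the low end of the scale in every tissue, and the XmO pools 7.80, 7.82 and 8.08. The difference was 0.63 in liver and 1.13, 1.19 and 1.11 in kidney, muscle and brain. Of the XX pools, 1 and 2 were above every XpO pool, at 8.51 and 8.10, whereas XX pool 3 read 6.88, 6.82, 6.85 and 7.01 in the 4 tissues and had the mean of the XpO pools, 6.89. So the XX mice did not sit at one level, although they came from the cross of the XpO mice. From the raw intensities, quantile normalised, the difference was 1.99. The adjusted p of Ntpcr missed the threshold without XmO pool 1 (0.0531) and without XpO pool 1, 2 or 3 (0.0866, 0.0818 and 0.0793).

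**Figure D2:**
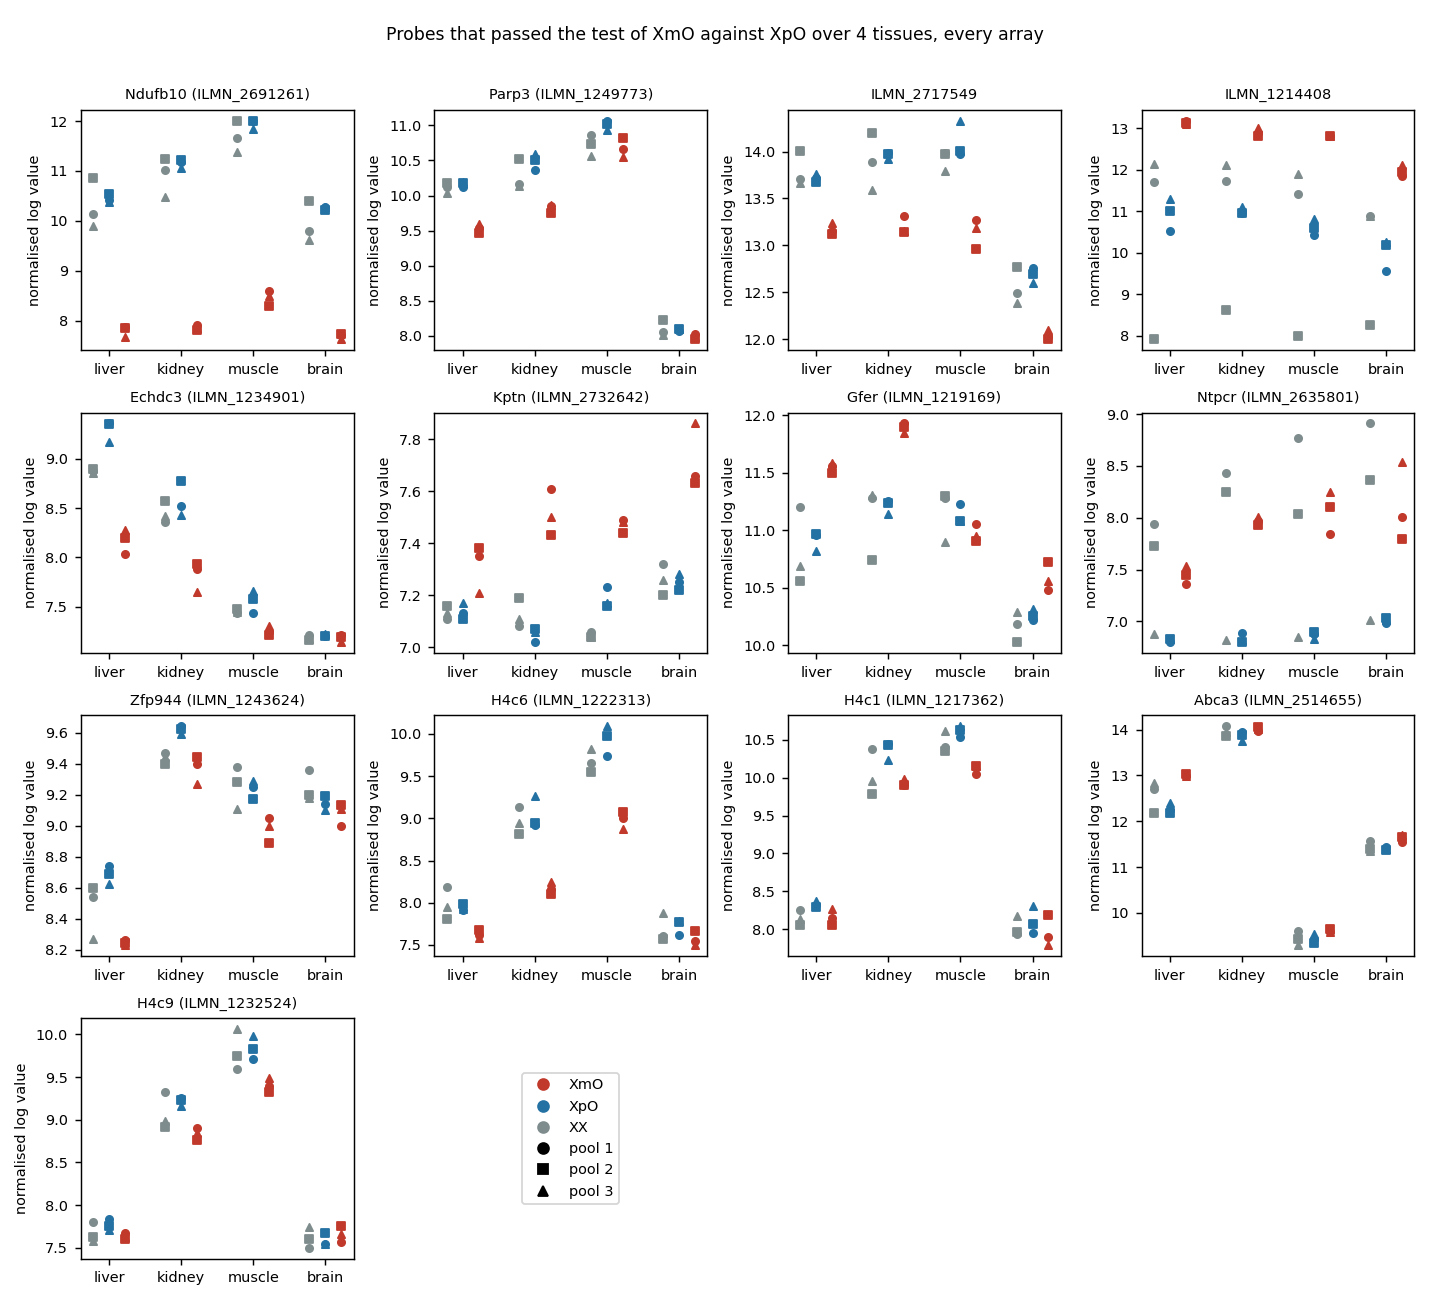
Normalised log2 value (y axis) of the 13 probes that passed, on every array, by tissue (x axis). Colours give the genotype and symbols the pool. Ndufb10 separates XmO from the rest in all 4 tissues, and XX pool 2 for ILMN_1214408 and XX pool 3 for Ntpcr lie apart from the other XX pools in each tissue.

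Parp3, Echdc3 and Kptn completed the named genes outside chromosomes 13 and 17. Parp3, a poly(ADP-ribose) polymerase with a role in DNA repair, was lower in XmO mice by 0.43 (SE 0.023, limma adjusted p = 0.00400). In liver it read 9.54, 9.46 and 9.59 against 10.12, 10.18 and 10.20 in XpO mice, and in brain 8.02, 7.95 and 7.98 against 8.06, 8.09 and 8.09. The groups did not overlap in any tissue, but the difference ran from -0.67 in kidney to -0.10 in brain (interaction, limma adjusted p = 0.0219, past the threshold in 8 of 17 settings).

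Echdc3, a gene of the enoyl-CoA hydratase family, was lower in XmO mice by 0.55 (SE 0.035, limma adjusted p = 0.00594). The liver read 8.03, 8.20 and 8.28 in XmO mice and 9.36, 9.35 and 9.17 in XpO mice. The difference was -1.12 in liver, -0.76 in kidney and -0.31 in muscle. In brain, where Echdc3 had values of 7.14 to 7.22, it was -0.03 and the groups overlapped (interaction, limma adjusted p = 0.00477). Xist had brain means of 7.22 in XmO and 7.27 in XpO mice, so Echdc3 was at the low end of the scale there. Without liver the mean difference was -0.36 (limma adjusted p = 0.0967), and the call was lost without XmO pool 1 as well (0.0573).

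Kptn, whose product kaptin binds actin and belongs to a complex that restrains mTORC1, was higher in XmO mice by 0.35 (SE 0.024, limma adjusted p = 0.00910). The XpO arrays read 7.02 to 7.28 and the XmO arrays 7.21 to 7.86, and within each tissue the groups were apart. Kptn was 0.18 higher in liver and 0.46, 0.28 and 0.47 higher in kidney, muscle and brain, without a called interaction (limma adjusted p = 0.142). All 3 XX pools had the XpO level (7.14, 7.15 and 7.14). That level is at the low end of the scale, where Xist had means of 7.13 in XmO and 7.15 in XpO mice. Whether Kptn was expressed at all in XX and XpO mice cannot be told from it. The raw intensities, quantile normalised, gave a difference of 0.66. The call missed the threshold without XmO pool 1 (0.0590) and without XpO pool 1, 2 or 3 (0.0672, 0.0687 and 0.0569).

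Gfer, Abca3 and Zfp944 lie on the same chromosome as Ndufb10. Chromosome 17 held 4 of the 13 probes, and 33 of its 625 tested probes (5.28%) had an unadjusted p under 0.01, against 2.41% of all probes and 0.911% to 4.14% on the other chromosomes. In the RefSeq order of its 458 tested genes, Zfp944 was at place 47, Abca3 at 64, Gfer at 75 and Ndufb10 at 79. The stretch from Zfp943, at place 45, to Ndufb10 was singled out after the values were seen, and no test was made of it. It held 44 probes of 35 genes. Of these, 16 probes of 13 genes (36.4%) had an unadjusted p under 0.01, 8 with a positive and 8 with a negative difference, and on the rest of the chromosome 17 of 581 probes (2.93%) did.

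Gfer encodes a sulfhydryl oxidase of the mitochondrial intermembrane space and was higher in XmO mice by 0.37 (SE 0.026, limma adjusted p = 0.00938). It read 11.56, 11.50 and 11.59 in XmO liver against 10.96, 10.97 and 10.82 in XpO liver, and 11.93, 11.90 and 11.85 against 11.26, 11.24 and 11.14 in kidney. In muscle the order was turned. The XmO arrays read 11.06, 10.91 and 10.95 and the XpO arrays 11.23, 11.08 and 11.08, a difference of -0.16, and the interaction passed (limma adjusted p = 0.00292). The call over tissues was lost without XmO pool 1 (0.0759), XmO pool 2 (0.0659) or XpO pool 2 (0.0717).

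Abca3, a lipid transporter of the ABC family, was higher by 0.32 (SE 0.032, limma adjusted p = 0.0463), mostly in liver. There the XmO arrays read 12.98, 13.03 and 12.99 and the XpO arrays 12.24, 12.18 and 12.40, a difference of 0.73, whereas kidney, muscle and brain gave 0.15, 0.16 and 0.23 (interaction, limma adjusted p = 0.00976, past the threshold in 8 of 17 settings). Without liver the mean fell to 0.18 (limma adjusted p = 0.316). Zfp944, a zinc finger gene, was lower by 0.25 (SE 0.022, limma adjusted p = 0.0259), from -0.44 in liver to -0.06 in brain. The calls of Abca3 and Zfp944 were lost when any single pool was left out, with limma adjusted p of 0.104 to 0.193 and 0.103 to 0.155.

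Genes of the stretch that did not pass included Elob, a subunit of elongin, with differences of 0.17, 0.22 and -0.03 in its 3 probes (limma adjusted p = 0.121, 0.151 and 0.871). Tbl3, a gene of ribosome assembly, had -0.23 (0.121), and the probe that the annotation assigns to Snora64, a small nucleolar RNA, had 0.16 (0.192). Flywch2 had differences of -0.43, -0.45, 0.31 and -0.01 in liver, kidney, muscle and brain, and its interaction passed (limma adjusted p = 0.0147). Farther along the chromosome, at place 149, Fgd2 had 0.20 (limma adjusted p = 0.121).

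**Figure D3:**
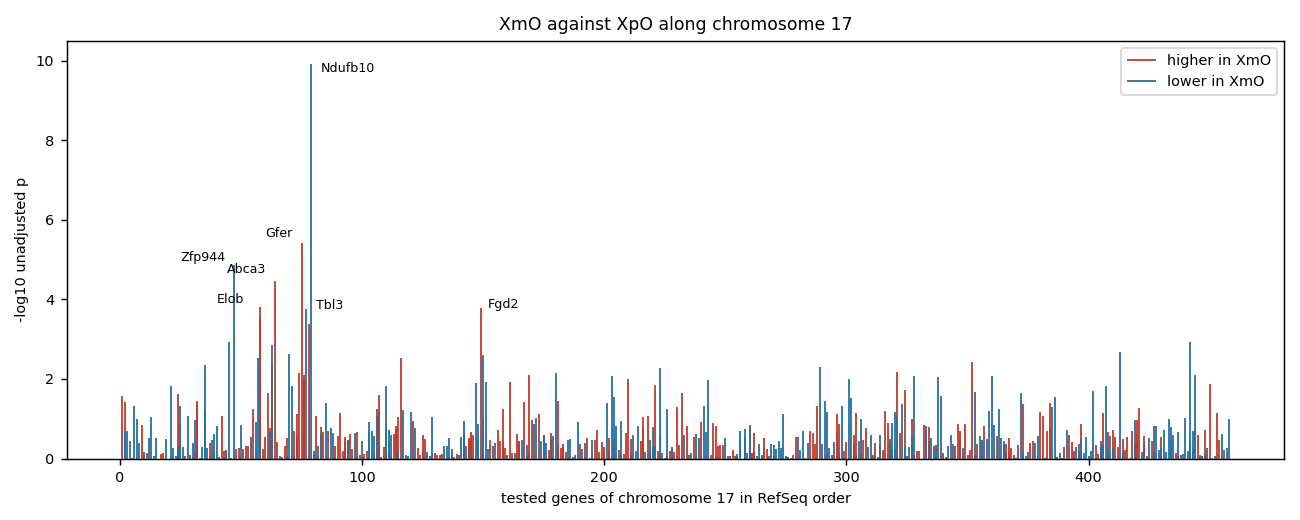
-log10 of the unadjusted limma p of XmO against XpO (y axis) for the probes of chromosome 17, in the order of the 458 tested genes (x axis). Red lines are probes higher and blue lines probes lower in XmO mice, before any threshold. The tall lines from Zfp944 to Ndufb10 lie at places 47 to 79 and run in both directions.

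A probe each of 3 histone H4 genes of the large histone cluster on chromosome 13 was lower in XmO mice. H4 is a core protein of the nucleosome, and its genes encode nearly the same protein and are alike in sequence, so which copy a probe reads is uncertain. H4c6 was lower by 0.58 (SE 0.056), H4c1 by 0.32 (SE 0.031) and H4c9 by 0.22 (SE 0.022), each at a limma adjusted p of 0.0463. H4c6 read 8.16, 8.10 and 8.24 in XmO kidney against 8.92, 8.94 and 9.26, and 9.00, 9.07 and 8.87 in XmO muscle against 9.74, 9.98 and 10.09. In brain the groups overlapped, with XmO values of up to 7.66 and XpO values of 7.62 to 7.78. The differences of H4c6 were -0.32, -0.87, -0.96 and -0.15 in liver, kidney, muscle and brain, and those of H4c1 -0.17, -0.44, -0.50 and -0.16. H4c9 had -0.14, -0.38, -0.43 and 0.07.

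The calls of H4c1 and H4c9 were lost when any single pool was left out (limma adjusted p of 0.108 to 0.185 and 0.136 to 0.232), and that of H4c6 without any pool but XpO pool 1 (0.0793 to 0.185 in the other 5 fits). The second probes of H4c6 and H4c1 had the opposite sign, 0.11 and 0.15 (limma adjusted p = 0.547 for each), and the other 2 probes of H4c9 the same sign, -0.15 and -0.08 (0.159 and 0.492), none of them with a call. Over all 16 probes of 8 H4 genes, 7 had a negative and 2 a positive difference at an unadjusted p under 0.05 (56.2%, against 8.77% of all probes), with a median of -0.08. Over 56 probes of 34 genes of the histone clusters it was 13 and 2 (26.8%), with a median of -0.06. These families were chosen after the values were seen.

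The promoters of the 4 H4 genes with the smallest p are shown because their probes lay on either side of the threshold, the 3 called genes inside and H4c11 (-0.25, limma adjusted p = 0.0652) just outside. Each run is the 80 bases before the annotated start, 5′ to 3′ on the strand of the gene, from RefSeq on GRCm38.p6. Capitals mark GGTCCG, the core of an element known from the promoters of H4 genes.
H4c6 (chr13:23551669-23551748, minus strand): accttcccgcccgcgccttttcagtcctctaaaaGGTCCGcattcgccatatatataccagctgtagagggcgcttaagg
H4c9 (chr13:22041363-22041442, minus strand): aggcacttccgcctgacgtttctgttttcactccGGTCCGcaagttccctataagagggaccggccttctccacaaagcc
H4c11 (chr13:21734954-21735033, plus strand): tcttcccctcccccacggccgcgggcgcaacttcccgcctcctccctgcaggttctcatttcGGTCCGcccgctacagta
H4c1 (chr13:23761250-23761329, minus strand): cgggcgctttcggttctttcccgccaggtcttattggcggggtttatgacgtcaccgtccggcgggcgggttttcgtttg
On either strand, GGTCCG was in 10 of 11 H4 windows of 300 bases (250 before and 50 after the start), H4c1 being without it, and in 8.25% of the 32851 windows of all genes. TATAA was in 10 of 11 H4 windows and in 24.9% of all.

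On the X chromosome no probe passed. Of 360 X-linked probes, 31 had an unadjusted p under 0.05 (8.61%, against 8.77% of all), 18 with a positive and 13 with a negative difference. The median difference was 0.00, as for the 12594 autosomal probes. Of X-linked probes 94.7% differed by less than 0.1, against 91.5% of autosomal probes. The X-linked minus autosomal median was 0.00. An exact permutation test of 3 against 3 pools cannot give a p below 0.1, so no test bears on this value.

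Erdr1, a gene of the pseudoautosomal region, the part of the X that pairs with the Y, had the smallest p of the X. Probe ILMN_1249386 read 7.84 to 8.03 in XmO liver against 8.43, 8.35 and 8.40 in XpO liver. In kidney and muscle the groups were apart too, and in brain they overlapped, since XmO pool 2 read 9.11 there and pools 1 and 3 read 8.36 and 8.40. The mean difference was -0.44 (SE 0.062, limma adjusted p = 0.151). Without XmO pool 2 it was -0.50 (0.0394) and without brain -0.46 (0.00300). The second probe differed by -0.18 (SE 0.033, limma adjusted p = 0.274). The XX pools read 9.27, 9.52 and 9.19 with the first probe, above all XO pools.

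The other X-linked genes by p had differences of -0.16 for Sh3kbp1, an adaptor of receptor endocytosis, 0.11 for Snx12, a sorting nexin, -0.10 for the best of 4 probes of Lamp2, a lysosomal membrane protein, and 0.08 for the best of 3 probes of the purine salvage gene Hprt. Their limma adjusted p were 0.200, 0.360, 0.377 and 0.389. The difference of Sh3kbp1 was largest in brain (-0.48, against -0.05 in each of liver, kidney and muscle), without a called interaction (limma adjusted p = 0.305). The second probe of Sh3kbp1 differed by -0.02. Of the Xlr family and other X-linked genes with known parental expression, 2 of 23 had values in all tissues, Esx1 and Fthl17a. Both differed by 0.01 at most. Their means in XmO mice were 7.12 and 7.24, near that of Xist there (7.13). At so low a signal the values cannot show whether parental origin matters for these genes. Xlr3b had a probe but no value in some tissue, and no gene of the Xlr family itself was tested. Of the X inactivation centre, 3 of 9 genes were measured, with 4 probes between -0.11 (Rlim) and 0.01. Xist differed by -0.02 (SE 0.019, limma adjusted p = 0.800).

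The list of genes escaping X inactivation was represented by 10 of 15 genes with 17 probes, whose differences were -0.04 to 0.15 with a median of 0.01. Huwe1 gave 4 of these probes, although the authors detected only the allele of its active X in cDNA. Ddx3x, an RNA helicase, had the 0.15 (SE 0.052, limma adjusted p = 0.509). The difference of Ddx3x was largest in brain (0.57), at 9.65, 9.74 and 9.57 in XmO mice against 8.97, 9.10 and 9.19. Liver, kidney and muscle gave 0.10, -0.02 and -0.07, and the interaction did not pass (limma adjusted p = 0.124). The histone demethylases Kdm6a and Kdm5c and the deubiquitinase Usp9x differed by less than 0.1 over the tissues in all their probes. Several probes of the list were dim, and a difference could be missed there. In XmO mice Usp9x ILMN_2470287 read 7.13, the level of Xist. Kdm6a ILMN_1235933 read 7.33, the Kdm5c probes 7.34 and 7.46, and the Huwe1 probes other than ILMN_2494747 7.17 to 7.30. The other probes of Kdm6a read 9.09 and 9.12. Of the list of the pseudoautosomal region and its border, 6 of 16 genes had 10 probes. Those outside Erdr1 did not have an unadjusted p under 0.05. The annotation placed Dhrsx and Cd99 of this list on chromosome 4, and Cd99l2, Frmpd4 and Msl3 on the X. The list therefore says little of the pseudoautosomal region beyond Erdr1. Of 56 probes of 30 autosomal imprinted genes, none passed, 1 had a positive and 3 a negative difference at an unadjusted p under 0.05 (7.14%), and the median was 0.00. Ddc, imprinted in some tissues, had -0.20 and -0.18 in its 2 probes (limma adjusted p = 0.442 and 0.507).

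In the lists of glucocorticoid and clock genes no probe passed, although unadjusted p under 0.05 were more frequent than over all probes. These lists were set with earlier results of the data known. Of 20 probes of 15 genes that glucocorticoids or stress induce, 8 had an unadjusted p under 0.05 (40%), all positive, and the list had a median of 0.11. Sgk1, a kinase induced by corticosteroids, had pool means of 11.30, 11.59 and 11.52 in XmO mice and 11.22, 11.09 and 10.99 in XpO mice (0.37, limma adjusted p = 0.360). Its second probe differed by 0.36 (limma adjusted p = 0.411). Errfi1, a feedback inhibitor of the EGF receptor, had 12.30, 12.39 and 12.55 against 12.14, 12.10 and 11.91 (0.36, limma adjusted p = 0.360). The differences of Ddit4, an inhibitor of mTORC1, and of Klf9, a transcription factor, were 0.13 (0.202) and 0.23 (0.432).

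Of 24 probes of 15 clock genes, 5 had positive and 2 negative differences at an unadjusted p under 0.05 (29.2%), with a median of 0.04. Per3 and Per2, repressors of the clock, had 0.33 and 0.29 (limma adjusted p = 0.364 and 0.389). Tef, an output gene, had 0.13, 0.25 and 0.02 in its probes (0.360, 0.593 and 0.894). Npas2, which activates the clock's transcription, had -0.16 and -0.18 in its 2 probes (0.425 and 0.547). For Per3 the XX pools 2 and 3 read 8.18 and 8.37, as the XmO pools did, and XX pool 1 lay within the XpO range.

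Lists in which no probe had an unadjusted p under 0.05 were heat shock proteins (17 probes), interferon-induced genes (14), subunits of eIF2 and eIF2B (11) and red cell markers (13), and the adipocyte list was read by 1 probe (0.05). At the same threshold immediate early genes had 1 positive and 0 negative of 12 probes (8.33%). Histocompatibility genes had 0 and 3 of 26 (11.5%), cholesterol synthesis 0 and 1 of 28 (3.57%) and proteasome subunits 1 and 2 of 39 (7.69%). Cytoplasmic ribosomal proteins had 6 and 5 of 59 (18.6%, against 8.77% of all probes). The medians of these lists were -0.04 to 0.01, and no probe of them was called. Of the leukocyte markers, 3 of 7 probes were negative at an unadjusted p under 0.05 (42.9%, against 8.77% of all probes). These were probes of Laptm5 (-0.24), Lyz2 (-0.27) and Coro1a (-0.14). The other probes of Coro1a had -0.05 and -0.03. The mean level of the 7 leukocyte probes over the tissues was 8.52 to 8.59 in the XmO pools and 8.64 to 8.69 in the XpO pools. Whether this had a part in other differences was not tested, and in bulk RNA fewer cells of a type cannot be told apart from less RNA per cell. The red cell markers had means of 11.89 to 12.03 in the XmO pools and 11.78 to 12.31 in the XpO pools.

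**Figure D4:**
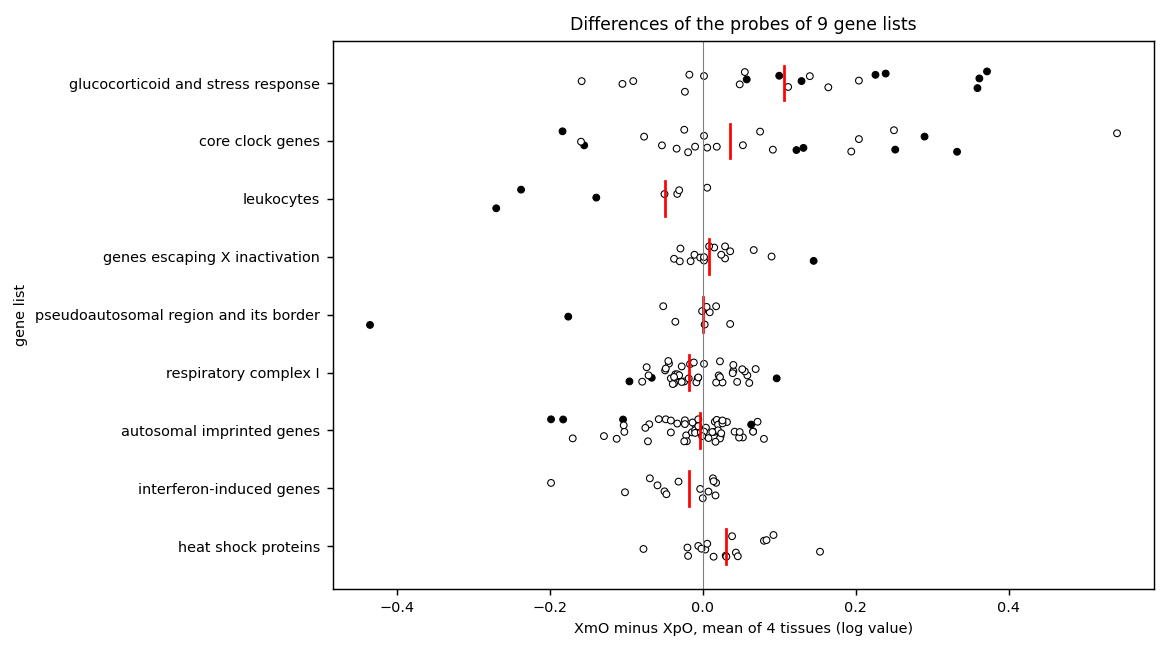
Differences between XmO and XpO pools (x axis, log2 scale) of the probes of 9 gene lists (y axis). Filled points have an unadjusted p under 0.05 and red bars are list medians, 0.11 for the glucocorticoid list and -0.02 for complex I, whose Ndufb10 at -3.00 lies outside the axis.

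A difference that changes from tissue to tissue is hidden in a mean, so the interaction was tested across the same probes. It passed for 201 probes (1.18%, with 2806 at an unadjusted p under 0.05), 7 of which were among the 13. In 187 of the 201 the tissues differed in sign, which was common over all probes too, since 2300 of 17020 kept 1 sign. The largest of the 4 differences was in brain for 129 of them, 95 higher and 34 lower in XmO mice, in kidney for 44, in muscle for 19 and in liver for 9. In 122 the difference was negative in kidney and positive in brain, a pattern that was not counted over all probes. Brain was also the tissue with the loosest replicates. The count was 11 without XpO pool 1 and 4 without kidney, and it was 66, 56, 23 and 26 without XmO pools 1 and 2 and XpO pools 2 and 3.

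Id2, an inhibitor of helix-loop-helix transcription factors, was the clearest case outside the 13. Probe ILMN_1228557 read 10.14, 10.15 and 10.23 in XmO kidney against 10.77, 10.69 and 10.69, and 9.42, 9.54 and 9.33 in XmO brain against 9.01, 8.96 and 9.05. The differences were -0.22, -0.54, -0.03 and 0.42 in the order of the tissues above (interaction, limma adjusted p = 0.00292), and its mean difference did not pass (-0.09, limma adjusted p = 0.550). Its second probe gave -0.15 in kidney and -0.05 in brain, without a call (interaction, limma adjusted p = 0.790).

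Of 43 complex I probes, 6 had a called interaction, Ndufb10 included, against 1.18% of all probes. Most of them had the negative difference in kidney and positive difference in brain of 122 of the 201, and the interaction count of all probes was 4 without kidney. Ndufa6, Ndufb5 and Ndufb9, all accessory subunits, had -0.43, -0.40 and -0.30 in kidney and 0.25, 0.42 and 0.36 in brain. Ndufs4 had -0.23 and 0.29, and Ndufa7 went the other way, with 0.07 in kidney and -0.30 in brain. The limma adjusted p of these 5 were 0.0219, 0.0219, 0.0299, 0.0344 and 0.0210.

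**Figure D5:**
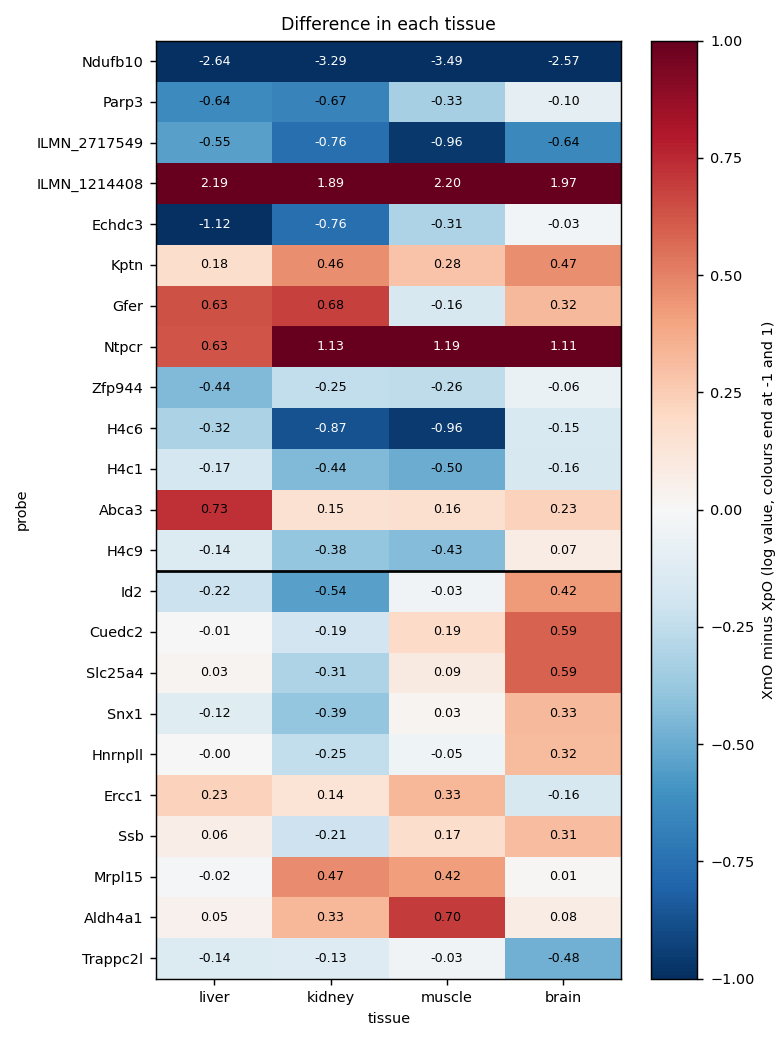
XmO minus XpO in each tissue (columns, log2 scale, colours end at -1 and 1) for the 13 probes that passed over the tissues (above the line) and the 10 other probes with a gene name that had the smallest interaction p. Ndufb10 keeps its sign at -2.57 to -3.49, whereas Id2 goes from -0.54 in kidney to 0.42 in brain.

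Of the 13 probes, 11 had the same sign in all 4 tissues, the exceptions being Gfer in muscle and H4c9 in brain. Over all probes 2300 of 17020 kept 1 sign, and among the 1493 with an unadjusted p under 0.05 it was 764. Beside the XO values, the mean of each XX pool was nearer to the XpO than to the XmO mean in all 3 pools for Ndufb10, ILMN_2717549, Echdc3, Kptn, Gfer and H4c6. For Ntpcr it was so in 1 pool, and for the other 6 probes in 2.

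Size alone did not make a call. Of 5 probes that differed by at least 1, 2 missed the threshold. Csrp1, a LIM domain gene named after its values were seen, differed by 2.11 (SE 0.28, limma adjusted p = 0.124), with XpO pools at 7.02, 8.06 and 7.04 and an XmO mean of 9.49 ± 0.18 (SD, n = 3). Msmo1, an enzyme of cholesterol synthesis, differed by 1.30 (SE 0.67, limma adjusted p = 0.650). XpO pools 1 and 2 read 9.53 and 9.39 and XpO pool 3 read 6.93, while the XmO pools read 10.15, 9.90 and 9.71.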

How the data were processed

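RNA of the pools was hybridised to Illumina Mouse WG-6 v1_1 arrays. The authors summarised beads in BeadStudio and normalised all arrays by quantiles with lumi, and the deposited table holds these log2 values, blank in a tissue for probes not kept there. The base was read from the data: above an intensity of 1000 the deposited value rose by 0.98 to 1.07 per unit of log2 intensity, and between 80 and 300 by 0.51 to 0.70, so differences of dim probes are understated. The deposited intensities before normalisation (other, linear scale) were used for alternatives, without the muscle array of XpO pool 3, whose column held whole numbers of 10 to 108 that did not match its values. The number of arrays limits the precision.

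Pool means over the 4 tissues, which take out the tissue block exactly, were compared with limma 3.58.1 in R 4.3.3 (lmFit and eBayes, two-sided, Benjamini-Hochberg over 17020 probes, threshold 0.05). The interaction was a limma F test of 24 arrays with pool and tissue as blocks. Of 28885 probes, 21014 had 1 gene symbol, 6 several and 7865 none. Symbols were updated through RefSeq (GRCm38.p6), used for names, chromosomes and order. Named genes were the called probes whose pools did not overlap, and the 5 X-linked and 5 interaction genes with the smallest p. The measured members of the X-linked lists and up to 4 genes of each other list were named too. For some genes with several probes only the probe with the smallest p is given. Further genes are said to be chosen after their values were seen. The genotypes, lists and rules were chosen with earlier results of these data known. The fits were tested on simulated data. Alternatives were other units of replication, a replicate block, normalisations, filters, leaving out pools, tissues or an array, and averaging the probes of a gene.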

Additional observations from a re-analysis of the deposited data

Results flagged for a closer look

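The difference between XmO and XpO mice changed with the tissue for 10 probes of genes named in the report, by the limma interaction test over 17020 probes. For Ndufb10 (adjusted p = 0.000437) the size changed and the direction did not. Id2 (0.00292), Gfer (0.00292) and H4c9 (0.0444) changed direction between tissues. H4c6 (0.00375), Echdc3 (0.00477), Abca3 (0.00976) and Parp3 (0.0219) had mean differences of the same sign in all 4 tissues, by amounts that differed. In brain the groups overlapped for Echdc3 (-0.03) and H4c6 (-0.15). X-linked probes were Huwe1 ILMN_2494747 (0.0248), with -0.14, -0.20, 0.29 and 0.32 in liver, kidney, muscle and brain, and Lamp2 ILMN_2508945 (0.0279), with 0.00, -0.37, 0.14 and 0.04. The other 3 probes of Huwe1 and of Lamp2 did not pass. Several of these interaction calls were lost under other settings. Over 17 settings, the reported one included, H4c9 passed in 3 (adjusted p of up to 0.253), Lamp2 in 4 (0.568), Huwe1 in 6 (0.159), Parp3 in 8 (0.249) and Abca3 in 8 (0.836). Gfer and Id2 passed in 15 (0.133 and 0.121), Ndufb10 and H4c6 in 16 (0.0968 and 0.0520), and Echdc3 in 13 of the 16 settings that held it (0.0749).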

How the results depend on the processing

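Ndufb10 and ILMN_2717549 passed in every alternative run, and the 13 probes kept their direction in each alternative that held them; Echdc3, Ntpcr and Kptn were not in the fit with the dimmer probes left out. Over 488 repeats of single probes, 89 lost and 7 gained a call (all 7 for Erdr1), and 0 called values changed sign. The count of 13 went to 153 with the pool as a random block (73 higher in XmO, 4 X-linked), 136 with the pool not in the fit (66 higher, 3 X-linked), 20 with no filter (11 higher), and 6 without liver (3 higher) or without kidney (2 higher), all 6 among the 13. Leaving out a pool gave 4 to 13 calls, 0 to 7 of them higher and 0 to 1 X-linked, the lowest without XmO pool 1 (4 and 0), and 7 and 6 without XpO pools 2 and 3. From quantile normalised raw intensities 8 calls were higher. With median scaling or without brain, 1 X-linked probe passed, Erdr1. The interaction count of 201 went to 93, 98 and 107 from raw intensities (quantile, normexp and median scaling), 127 with the dimmer probes left out, 101 with no filter, 24 without liver, 4 without kidney, 106 without muscle, 38 without brain and 69 with the probes of a gene averaged; without a pool it was 11 to 194, that is 66 and 56 without XmO pools 1 and 2 and 11, 23 and 26 without XpO pools 1, 2 and 3. The cause of these changes was not tested. The X-linked minus autosomal median was -0.0023 to 0.0042 without a pool.

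No pairing of XmO with XpO mice by replicate number was seen. Same-numbered arrays of a tissue had correlations of -0.39 to 0.18, against -0.26 to 0.47 for different numbers. Of 12 XmO arrays, 1 correlated best with its own number. With 3 arrays in a group, these correlations cannot decide whether the numbers pair. With the replicate block 3 probes passed, 1 of them higher in XmO, all among the 13. From raw intensities Ntpcr was 1.76 to 1.99 and Kptn 0.59 to 0.67, and with median scaling Zfp944 was -0.39.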

Other observations

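Pool means of the same genotype lay far apart in a few probes. The range of the 3 pool means over the tissues was at least 1 for 8 probes in XmO mice, 13 in XpO mice and 19 in XX mice. Ap2m1, a subunit of the clathrin adaptor, had means of 8.38, 9.98 and 10.89 in XmO pools 1, 2 and 3. Fbxw5, an F-box gene, had 8.33, 10.43 and 8.88. In XpO mice Msmo1 had the widest range (2.60), and in XX mice ILMN_1214408 (3.57) and Msmo1 (2.69, with XX pool 3 at 6.95). Man2b1, a lysosomal mannosidase, had 7.95, 8.70 and 9.72 in the XpO pools. All but Msmo1 and ILMN_1214408 were picked after their values were seen, and no test was made of these ranges.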
